A study of Mus musculus with 6 samples.

Results

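Solute carriers are the membrane proteins that move amino acids, sugars, vitamins, nucleosides, metals, ions and metabolic intermediates across the plasma membrane and the membranes of organelles. They are grouped into numbered families by sequence, and most are passive or are driven by gradients of sodium, protons or the exchanged solute. Developing and activated T cells are known to depend on several of them for amino acids, iron, phosphate and mitochondrial exchange.

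Of 309 solute carrier symbols named Slc, family number, a, member number in the deposited gene table, 123 had a mean of at least 1 FPKM over both genotypes and were taken as the members described here. FPKM counts the sequenced fragments of a transcript, scaled by its length and by the size of the library. The members lie on 122 of the 37867 gene models in the table, because Slc12a8 and Slc12a9 name 1 shared model on chromosome 5. Slc12a8 also has a model of its own on chromosome 16, which the authors did not test, at 0.0264 FPKM in KO and 0.0407 FPKM in WT, so the shared value is no measure of Slc12a8. A further 183 symbols lay below that level, 72 of them listed at 0 in both genotypes, and Slc2a1, Slc2a3 and Slc16a1 were left out by name. The pattern of the names also leaves out the SLC35 families b to f. Apart from these 3 names, the level chose the members, so which carriers are expressed is a description. The rule does not use the comparison of genotypes, but the family was chosen with earlier results of these data known, and taking in the 3 symbols would add 1 lower call. Just inside the threshold were Slc25a29, Slc9a7 and Slc41a3, with means of 1.10, 1.14 and 1.29 FPKM. Just outside it were Slc22a15, Slc9a5 and Slc18a2, with means of 0.987, 0.957 and 0.955 FPKM.

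The cells were thymocytes at the CD4+ CD8+ double-positive (DP) stage, sorted from mice of the C57bl6 strain. The KO group is labelled as a knockout of mir181a1/b1, a locus that makes miR-181a and miR-181b, and the WT group is labelled as wild type. No model in the table is named for the microRNAs of the deleted locus, so how far they were lost was not checked here. Each group had 3 libraries of total RNA, and the design speaks of sorted populations without saying whether each came from its own animal. The table gives 1 FPKM value per genotype and the authors' own comparison, so no value, depth or spread of a single library is shown. The standard error given here is the one implied by the authors' test statistic, and a model was called where its q, the p-value adjusted over all tested models, in the authors' deposited table was under 0.05. In bulk RNA, fewer cells of a type and less RNA per cell cannot be told apart.

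A mature microRNA recognises transcripts mainly through its seed, and loss of a microRNA can raise the RNA of transcripts that carry the matching site in the 3′ UTR. The mature strands of the deleted locus, from RefSeq on GRCm38.p6, are shown because their shared seed, bases 2 to 8 in capitals, defines the sites searched for in the carriers. They lie at chr1:137966468-137966490 and chr1:137966650-137966673 on the plus strand.
miR-181a-5p: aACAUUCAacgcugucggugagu
miR-181b-5p: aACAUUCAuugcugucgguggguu
The reverse complement of the seed, TGAATGT in DNA letters, occurred in the 3′ UTR of 24 of the 121 members that have one (19.8%), and in 17.03% of 8939 expressed coding genes. The longer form TGAATGTA occurred in 10 members (8.26%), at 11 positions, and in 5.53% of the coding genes. Both motifs were searched on the transcript strand of 1 reference transcript a gene, and the longer motif contains the shorter. The sites of 3 of the 10 carriers, chosen after their values were seen as given below, are shown with the motif in capitals. They lie on the minus strand of GRCm38, at chr14:69244185-69244214 in Slc25a37, the mitochondrial iron importer mitoferrin 1, at chr9:97075769-97075798 in Slc25a36, a mitochondrial carrier of pyrimidine nucleotides by its human protein, and at chr3:116672672-116672701 and chr3:116671286-116671315 in Slc35a3, a Golgi carrier of UDP-N-acetylglucosamine.
Slc25a37: ggagtttaactTGAATGTAaaataataaat
Slc25a36: gctaacctttcTGAATGTAccccagtggat
Slc35a3, first: gaagcatatatTGAATGTAgttttgaaatg
Slc35a3, second: agtaattgggcTGAATGTAtagtctaaaaa

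Most carriers differed by less than 1.5-fold between the genotypes, and few were called. Of the 122 models, 2 were higher in KO and 12 lower by the q of the authors' deposited table, and 108 were not called. Over all 13834 tested models 17.1% were called, 1.79% higher and 15.3% lower, and among the 11464 with a mean of at least 1 FPKM the shares were 19.1%, 1.95% and 17.2%. The share of carriers called, 11.5%, lay below both backgrounds. At an unadjusted p under 0.05, 8 were higher and 22 lower, and the shares of all tested models at that p were not counted. All calls but that of Slc15a2, 13 of the 14, ended once the trend with base composition and length, described below, was removed. The median log2 ratio of KO over WT was -0.23 over the carriers and -0.17 over all tested models. It was -0.19 over tested models with a mean of at least 1 FPKM, and -0.25 over the 8999 coding genes used to fit that trend. The carriers' median turned to 0.042 with the trend removed. The models under 1.5-fold numbered 81, and of the 108 that were not called 59 had an implied 95% interval within 1 log2 unit of 0. The summed level of all carriers was 1885 FPKM in KO and 2172 FPKM in WT, which was 0.634% of the summed FPKM of all models in KO and 0.602% in WT.

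**Figure D1:**
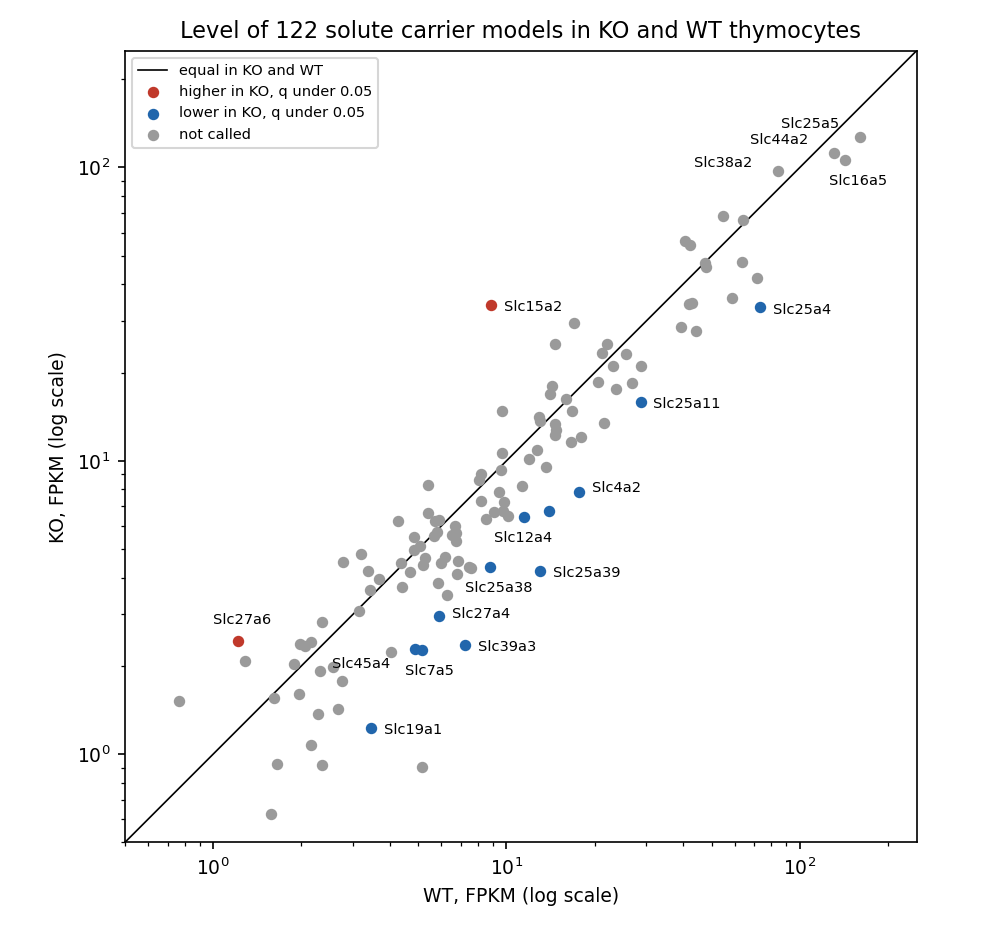
FPKM of each of the 122 solute carrier models in KO (vertical) against WT (horizontal), both on log scales, with the line of equal level. Levels span 0.623 to 127 FPKM in KO and 0.767 to 160 FPKM in WT, and Slc15a2, at 34.1 FPKM in KO and 8.87 FPKM in WT, lies farthest above the line.

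The double-positive markers were expressed at a summed 6206 FPKM in KO and 7064 FPKM in WT. Of 11 in the table, 2 were lower, Cd3d and Ptcra, and none was higher, where 17.2% of models with a mean of at least 1 FPKM were lower. With the trend removed neither Cd3d nor Ptcra was called, with adjusted p of 0.764 and 0.738. Among markers of other cells, Il2ra, a receptor chain of earlier thymocytes, was higher at 29.4 FPKM in KO and 2.89 FPKM in WT. It stayed called with the trend removed, with a log2 ratio of 3.19 and an adjusted p of 4.99e-20. The summed level of the double-negative list was 36.3 FPKM in KO and 9.53 FPKM in WT, with 1 of 5 tested members higher. That member, Il2ra, made up most of the sum in KO, and the other tested members were not called. Cd44 and Il7r were at 3.81 and 1.03 FPKM in KO and 2.96 and 0.803 FPKM in WT. Dtx1 and Kit were at 1.65 and 0.370 FPKM in KO and 2.13 and 0.672 FPKM in WT. The B cell list summed to 15.95 FPKM in KO and 20.4 FPKM in WT, nearly all of it Cd79b, at 15.7 FPKM in KO and 20.1 FPKM in WT. The summed levels of macrophage and dendritic, erythroid and thymic epithelial markers were 2.40, 0.674 and 2.01 FPKM in KO and 4.96, 1.35 and 7.95 FPKM in WT. Nearly all of the thymic epithelial sum was Cd74. Krt8 and Krt5 of that list were at 0.00542 and 0.0140 FPKM in KO and 0.0346 and 0.0113 FPKM in WT. Itgam of macrophages was lower, at 1.02 FPKM in KO and 2.11 FPKM in WT, and so was Cd74, at 1.99 FPKM in KO and 7.89 FPKM in WT. With the trend removed neither Itgam nor Cd74 was called, with adjusted p of 0.191 and 0.299. Slc4a1, the erythroid anion exchanger, was listed at 0 in both genotypes. The part of other cells in the differences below was not tested.

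The largest called ratio among the carriers was in the peptide transporters. Slc15a2 encodes PEPT2, a proton-coupled importer of di- and tripeptides known from the kidney, and its level was 34.1 FPKM in KO and 8.87 FPKM in WT. It was 3.84-fold higher in KO, a log2 ratio of 1.94 ± 0.26 (implied standard error) with an implied 95% interval of 1.42 to 2.46 and q = 6.36e-11 in the authors' deposited table. Among all 247 models called higher its ratio ranked 29. The model lies at chr16:36750280-36785048 in mm9, its reference transcript shares no 50-base stretch with another gene, and its 3′ UTR holds no TGAATGT. None of the expressed neighbours within 200 kb was called higher. Golgb1, a Golgi protein gene, was at 14.4 FPKM in KO and 12.8 FPKM in WT (q = 0.741 in the authors' deposited table). Iqcb1 was at 5.70 FPKM in KO and 5.28 FPKM in WT (q = 0.914 in the authors' deposited table). Hcls1, a cytoskeletal adaptor of blood cells, was lower, at 76.6 FPKM in KO and 127 FPKM in WT (q = 0.0142 in the authors' deposited table). The other peptide carrier, the lysosomal Slc15a4, was at 4.65 FPKM in KO and 5.26 FPKM in WT and was not called.

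The carriers of amino acids were among the best expressed, and 1 of 16 was called, lower in KO, where 17.2% of models at such levels were lower. Slc7a5, the light chain of the large neutral amino acid transporter LAT1, was at 2.26 FPKM in KO and 5.16 FPKM in WT, a log2 ratio of -1.19 ± 0.31 with q = 0.00151 in the authors' deposited table. With the trend removed its ratio was -0.37, with an adjusted p of 0.861, and it was no longer called. Its heavy chain Slc3a2, shared with several light chains, was at 18.5 FPKM in KO and 26.9 FPKM in WT (q = 0.260 in the authors' deposited table). The highest levels belonged to Slc38a2 and Slc38a1, sodium-coupled importers of glutamine and other neutral amino acids. Slc38a2 was at 96.9 FPKM in KO and 84.0 FPKM in WT, and Slc38a1 at 45.7 FPKM in KO and 47.8 FPKM in WT. The glutamine carrier Slc1a5 was at 28.5 FPKM in KO and 39.3 FPKM in WT, and the cystine-glutamate exchanger Slc7a11 at 16.2 FPKM in KO and 16.01 FPKM in WT. The light chain Slc7a6 was at 12.8 FPKM in KO and 14.8 FPKM in WT. The cationic amino acid carrier Slc7a1 was at 5.67 FPKM in KO and 6.72 FPKM in WT. The 15 members not called had log2 ratios of -0.54 to 0.21, and the median of the role was -0.22.

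Mitochondrial carriers formed the largest role, with 34 models, 4 of them lower in KO and none higher, where 17.2% of models at such levels were lower. None of the 4 stayed called with the trend removed. Slc25a4, the adenine nucleotide translocase ANT1, exports ATP in exchange for ADP. It was at 33.3 FPKM in KO and 73.3 FPKM in WT, a log2 ratio of -1.14 ± 0.27 with q = 3.82e-04 in the authors' deposited table. Its paralogue Slc25a5, or ANT2, had the highest mean of all members, with 127 FPKM in KO and 160 FPKM in WT (q = 0.382 in the authors' deposited table). Of the 50-base stretches of Slc25a5, 46.6% occur in another gene too, so its value depends on how such reads were counted. Slc25a11, the oxoglutarate-malate carrier, was at 15.9 FPKM in KO and 28.7 FPKM in WT. Slc25a39, which is needed for mitochondrial glutathione import, was at 4.21 FPKM in KO and 13.1 FPKM in WT, a log2 ratio of -1.63 ± 0.56. Slc25a38, a glycine carrier of heme synthesis, was at 4.35 FPKM in KO and 8.78 FPKM in WT. The q of Slc25a11, Slc25a39 and Slc25a38 was 0.0142, 0.0254 and 0.0145 in the authors' deposited table.

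The other mitochondrial carriers were not called, with a median over the whole role of -0.33. The phosphate carrier Slc25a3 was at 66.1 FPKM in KO and 64.2 FPKM in WT. Slc25a23, an ATP-magnesium and phosphate carrier, was at 47.6 FPKM in KO and 63.3 FPKM in WT. The iron importer Slc25a37 was at 56.1 FPKM in KO and 40.5 FPKM in WT (q = 0.153 in the authors' deposited table). The citrate carrier Slc25a1 was at 4.12 FPKM in KO and 6.78 FPKM in WT (q = 0.115 in the authors' deposited table). The lowest ratio of any member, -2.52 for the dicarboxylate carrier Slc25a10 at 0.902 FPKM in KO and 5.16 FPKM in WT, had an implied standard error of 1.37 and was not called. In all, 15 members differed at least 2-fold, and 4 of them were not called.

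Among 16 models of ion and pH carriers, 3 were lower in KO as deposited, where 17.2% of models at such levels were lower. With the trend removed none was called. Slc4a2 exchanges chloride for bicarbonate and was at 7.82 FPKM in KO and 17.7 FPKM in WT, a log2 ratio of -1.18 ± 0.33 with q = 0.00466 in the authors' deposited table. Of its 50-base stretches 12.3% occur in another gene. Slc12a4, the potassium-chloride cotransporter KCC1, was at 6.42 FPKM in KO and 11.4 FPKM in WT, a log2 ratio of -0.83 ± 0.27 with q = 0.0181 in the authors' deposited table. Better expressed carriers of the same role were not called. The phosphate importer Slc20a1 was at 54.4 FPKM in KO and 42.3 FPKM in WT, and the endosomal exchanger Slc9a9 at 47.3 FPKM in KO and 47.7 FPKM in WT. The model shared by Slc12a8 and Slc12a9 was at 2.22 FPKM in KO and 4.04 FPKM in WT (q = 0.189 in the authors' deposited table).

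Of 21 carriers of zinc, iron, copper and magnesium, 1 was called lower, where 17.2% of models at such levels were lower. Slc39a3, the zinc importer ZIP3, was at 2.36 FPKM in KO and 7.23 FPKM in WT, a log2 ratio of -1.61 ± 0.31 with q = 8.85e-06 in the authors' deposited table, the smallest q among the lower carriers. With the trend removed its ratio was -0.42, with an adjusted p of 0.814. Slc39a7, which releases zinc from the endoplasmic reticulum, was at 27.7 FPKM in KO and 44.2 FPKM in WT on a model that also names H2-Ke6, with 82.2% of its 50-base stretches shared. Slc30a5, which loads zinc into the secretory pathway, was at 25.01 FPKM in KO and 21.98 FPKM in WT. The zinc carriers Slc30a9 and Slc39a6 were at 14.1 and 13.6 FPKM in KO and at 12.95 and 12.98 FPKM in WT. The zinc importer Slc39a10 was at 8.62 FPKM in KO and 8.04 FPKM in WT. The iron carrier Slc11a2 was at 5.999 FPKM in KO and 6.66 FPKM in WT. The iron exporter Slc40a1 lay below the threshold, at 0.117 FPKM in KO and 0.157 FPKM in WT, and was not tested by the authors. The 20 members not called had a lowest q of 0.197 in the authors' deposited table.

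**Figure D2:**
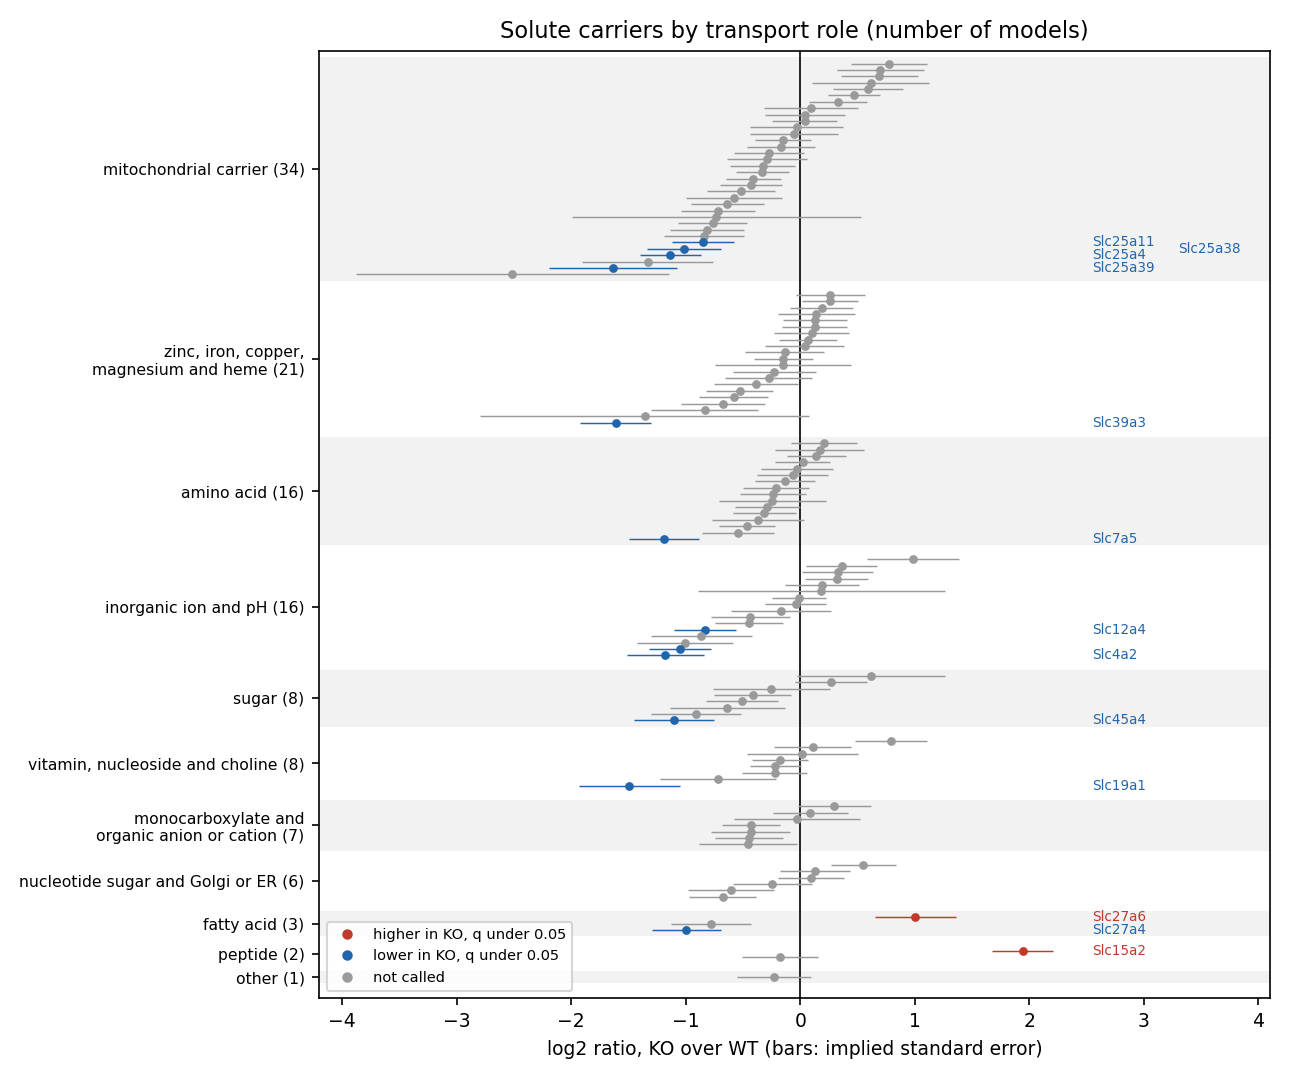
Log2 ratio of KO over WT (horizontal) of each solute carrier, in rows by transport role with the number of models in each. Bars are the implied standard errors. The 12 lower carriers are spread over 7 of the roles with no more than 4 in any of them, and the 2 higher ones, Slc15a2 and Slc27a6, are a peptide and a fatty acid carrier.

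The sugar carriers held 1 called member of 8, lower in KO, where 17.2% of models at such levels were lower. With the trend removed they held none. Slc45a4, of a family named for proton-linked sugar transport, was at 2.28 FPKM in KO and 4.88 FPKM in WT, a log2 ratio of -1.10 ± 0.35 with q = 0.0145 in the authors' deposited table. Slc37a2, a sugar phosphate exchanger, was at 11.6 FPKM in KO and 16.5 FPKM in WT. The inositol carrier Slc5a3, on a model that also names Mrps6, was at 12.3 FPKM in KO and 14.6 FPKM in WT. The general glucose importers were among the symbols left out by name.

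Of 8 carriers of vitamins, nucleosides and choline, 1 was called lower, where 17.2% of models at such levels were lower. With the trend removed none was called. Slc19a1, the reduced folate carrier, was at 1.23 FPKM in KO and 3.46 FPKM in WT, a log2 ratio of -1.49 ± 0.44 with q = 0.00751 in the authors' deposited table. Slc44a2, a choline transporter-like protein, was the third most abundant member, at 112 FPKM in KO and 131 FPKM in WT (q = 0.605 in the authors' deposited table). The equilibrative nucleoside carrier Slc29a1 was at 35.9 FPKM in KO and 58.9 FPKM in WT (q = 0.392 in the authors' deposited table). The sodium-coupled nucleoside carrier Slc28a2 was at 29.4 FPKM in KO and 16.97 FPKM in WT (q = 0.0677 in the authors' deposited table), with 39.8% of its 50-base stretches shared.

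The 3 fatty acid carriers held 1 call in each direction, where 1.95% of models at such levels were higher and 17.2% lower. With the trend removed they held none. Slc27a6 was at 2.43 FPKM in KO and 1.21 FPKM in WT, 2.01-fold higher, a log2 ratio of 1.00 ± 0.35 with q = 0.0308 in the authors' deposited table. Slc27a4, or FATP4, was at 2.96 FPKM in KO and 5.89 FPKM in WT, a log2 ratio of -0.995 ± 0.30 with q = 0.00854 in the authors' deposited table. Slc27a1, or FATP1, was at 4.35 FPKM in KO and 7.46 FPKM in WT (q = 0.116 in the authors' deposited table). All 3 encode long-chain fatty acid transport proteins of 1 family, and their levels lay in the lower range of the members.

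No monocarboxylate or organic ion carrier was called among 7, and no nucleotide sugar or acetyl-CoA carrier among 6, with the lowest q of these roles 0.276 and 0.0901 in the authors' deposited table. Among all tested models at such levels 19.1% were called. At an unadjusted p under 0.05, for which no share of all models was counted, there were 0 in the first role, and 1 higher and 1 lower in the second. Slc16a5, of the monocarboxylate transporter family, had the second highest mean of all members, with 106 FPKM in KO and 143 FPKM in WT. Slc17a5, the lysosomal sialic acid exporter, was at 8.23 FPKM in KO and 11.3 FPKM in WT. Slc35a4 was at 13.4 FPKM in KO and 21.5 FPKM in WT, and Slc35a5 at 6.26 FPKM in KO and 5.88 FPKM in WT. The urea carrier Slc14a1, alone in its role, was at 4.42 FPKM in KO and 5.19 FPKM in WT. Calls occurred at high and low levels. Of 49 models with a mean of at least 10 FPKM 1 was higher and 4 lower, where 21.6% of all such tested models were called, and of 73 below it 1 was higher and 8 lower, where 16.2% were called.

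The ratio of a carrier followed the base composition of its transcript. Across the 122 models the Spearman correlation of the log2 ratio with GC content was -0.73, and across 8999 expressed coding genes it was -0.76, all from the same libraries, so both are descriptions. The 41 carriers of lowest GC content (38.8 to 47.7%) had a median log2 ratio of 0.13, with 1 higher and none lower, and among coding genes in that range 3.45% were higher and 1.26% lower. The 40 in the middle (47.7 to 53.3%) had a median of -0.14 with 1 higher and 2 lower, where 0.552% of coding genes were higher and 9.16% lower. The 41 of highest GC content (53.5 to 60.9%) had a median of -0.72 with none higher and 10 lower, where 0.0757% of coding genes were higher and 48.1% lower. All 12 lower carriers lay above the members' median GC content, at 51.8 to 59.7%, whereas Slc15a2 lay at 43.5%. Extraction was by Trizol or a column kit, and the labels do not tie either to a library, so the part of extraction in this trend was not tested.

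**Figure D3:**
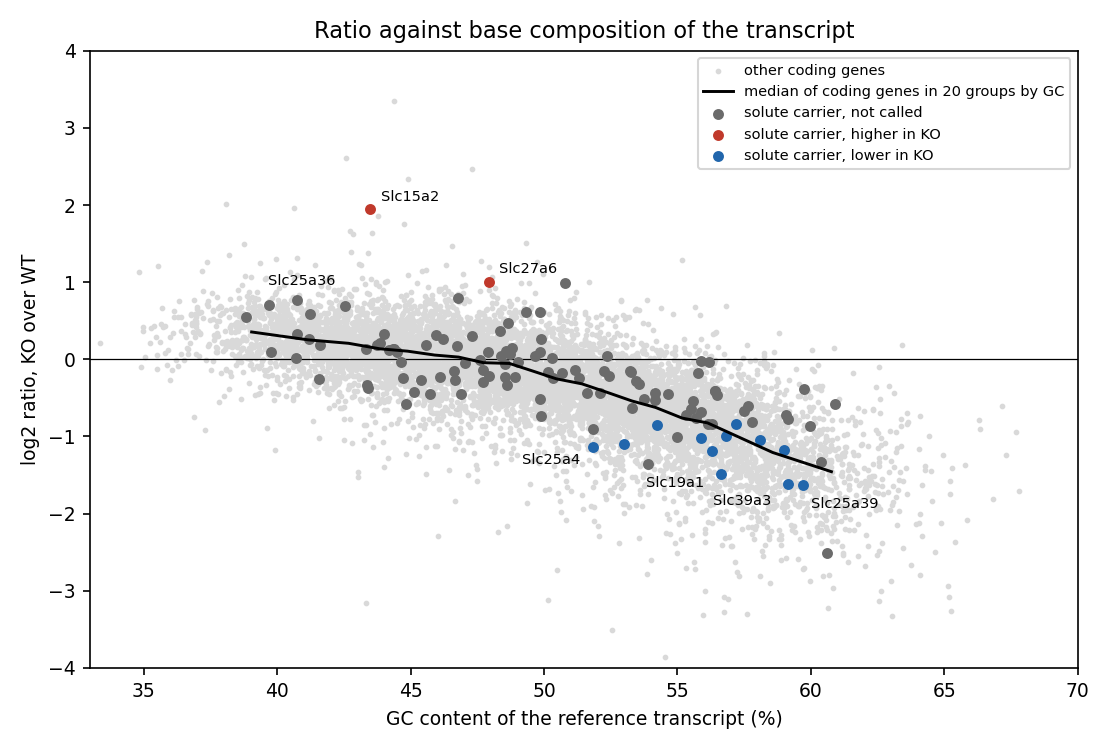
Log2 ratio of KO over WT (vertical) against GC content of the reference transcript (horizontal), for solute carriers over 8999 coding genes in grey, with the median of the coding genes in 20 groups by GC content as a line. The vertical axis ends at 4 log2 units either way, which leaves 7 coding genes outside it. The 12 lower carriers lie to the right along the falling line, and Slc15a2 lies above it on the left.

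When a smooth trend with GC content and length, fitted over the 8999 coding genes, was taken off the ratios, 1 carrier remained called. Slc15a2 kept a log2 ratio of 1.77, with a Benjamini-Hochberg adjusted p of 2.18e-08 over those genes. The standard errors were those of the authors' comparison, and the ratio ranked 8 among the coding genes. Of the coding genes 1.88% were called in this way, 0.867% higher and 1.01% lower. Slc27a6 kept a ratio of 1.06 with an adjusted p of 0.0988 from the same computation. The 12 lower carriers had ratios of -0.75 to 0.090 with a median of -0.22 and adjusted p of 0.166 to 0.999, and at 0.090 Slc12a4 turned its sign. Nearest to a call was Slc25a4, with -0.72 and an adjusted p of 0.166. At an unadjusted p under 0.05, 8 carriers were higher and 3 lower. The shares of the coding genes at that unadjusted p were not counted, so this does not set the carriers apart. The spread of the ratios over carriers, as an SD, was 0.61 as deposited and 0.43 with the trend removed.

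**Figure D4:**
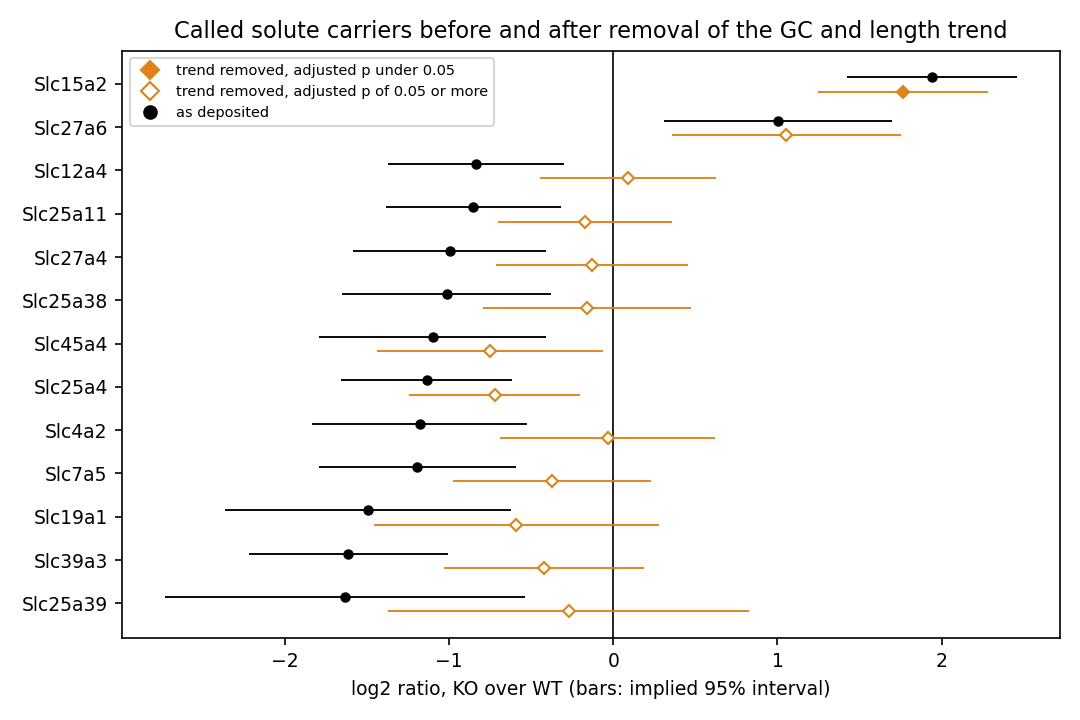
Log2 ratio of KO over WT of 13 of the 14 called solute carriers as deposited (circles, with implied 95% intervals) and with the GC and length trend removed (diamonds, filled where the adjusted p is under 0.05). Slc15a2 stays at 1.77, while the 11 lower carriers drawn move to between -0.75 and 0.09.

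No carrier with a miR-181 site was called higher. Of the 24 with TGAATGT 2 were lower, Slc39a3 and Slc45a4, and 12 had a positive and 12 a negative ratio. Among 1522 expressed coding genes with TGAATGT, 62 were called higher and 119 lower, so few calls would be looked for among 24. At an unadjusted p under 0.05, 3 of the 24 were higher and 3 lower, where 10.7% of coding genes with TGAATGT were higher and 11.96% lower. Their median log2 ratio was -0.06, against -0.24 for the 97 carriers without the motif, and with the trend removed the medians were 0.04 and 0.05. The carriers with the motif had longer 3′ UTRs, with a median of 2884 bases against 1231, and a lower GC content, 48.6% against 50.3%. Over all coding genes with the motif the median was 0.08 as deposited and 0.05 with the trend removed, and over those without it -0.33 and -0.01. Of the 10 carriers with TGAATGTA none was called, 6 had a positive ratio and 4 a negative one. At an unadjusted p under 0.05, 3 of the 10 were higher and 0 lower, where 16.4% of coding genes with TGAATGTA were higher and 8.70% lower. These 3 are the carriers whose sites are printed above, chosen after their values were seen, and none of them was called with the trend removed (adjusted p of 0.360 to 0.996). With all ratios centred on the median of the tested models instead, Slc25a37 and Slc25a36 passed as higher, with adjusted p of 0.0396 and 0.0362. Slc25a36, shown above, was at 25.1 FPKM in KO and 14.7 FPKM in WT (q = 0.0931 in the authors' deposited table). Slc35a3, with both of its sites shown above, was at 6.26 FPKM in KO and 4.27 FPKM in WT (q = 0.180 in the authors' deposited table). Neither Slc15a2 nor Slc27a6 carries the motif in its 3′ UTR.

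Other lists of transport genes were counted in the same way. Among all tested models with a mean of at least 1 FPKM, 1.95% were higher and 17.2% lower. Of 20 carriers listed for T cell growth and metabolism, 18 passed the level, with 1 higher, Slc15a2, and 2 lower, Slc7a5 and Slc19a1. The list, which holds Slc15a2, was made with earlier results of these data known. Its higher call is therefore no result apart from that of Slc15a2 above. Of 21 expressed ABC transporters, which move substrates with ATP, 6 were lower and none higher, where 17.2% of models at such levels were lower. None of the 6 stayed called with the trend removed, a check added after the data were seen. Abcb9, the lysosomal peptide transporter, had the lowest ratio of them, at 2.77 FPKM in KO and 13.1 FPKM in WT. The others were Abcf1 and Abcf2, which lack membrane domains, at 32.8 and 22.3 FPKM in KO and 53.4 and 41.2 FPKM in WT, and Abca2, Abcb8 and Abcc10, at 3.10, 1.88 and 0.861 FPKM in KO and 6.49, 5.35 and 2.29 FPKM in WT. Of 16 expressed accessory proteins 3 were lower, where 17.2% of models at such levels were lower, and none of the 3 stayed called with the trend removed (adjusted p of 0.217 to 0.767). Ftl1, the ferritin light chain, was at 53.0 FPKM in KO and 220 FPKM in WT, whereas the heavy chain Fth1 was at 265 FPKM in KO and 269 FPKM in WT. With the trend removed Fth1 was called higher, with a ratio of 0.82 and an adjusted p of 0.0169. Bsg, the chaperone basigin of monocarboxylate carriers, was at 44.3 FPKM in KO and 74.8 FPKM in WT, and Slco4a1 at 0.723 FPKM in KO and 2.30 FPKM in WT. Of 4 Mfsd carriers none was called, and of 11 carriers of the SLC35 families b to f, a list also added later, 1 was lower, Slc35b1 at 14.2 FPKM in KO and 26.9 FPKM in WT. With the trend removed it was at -0.56, with an adjusted p of 0.586, and was not called.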

How the data were processed

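RNA of 6 libraries of sorted thymocytes, 3 KO and 3 WT, was grouped by genotype as labelled. Per the submitters' processing notes, TopHat2 and the mm9 genome were used, without versions; which tool counted and tested was not given in the sources used here. Per the file headers, the deposited table held 1 FPKM value per genotype, a log2 ratio and a test statistic, both handled as a score, and p-values and q-values by the authors. The ratio of the deposited table, WT over KO, was turned to KO over WT. The implied standard error was the log2 ratio over the statistic. Depth was unknown, so no counting interval could be given, and FPKM does not correct for base composition.

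Members were rows whose symbol matched and whose average over both genotypes reached 1 FPKM, keeping the model with the highest sum per symbol. Members, role lists by family number and other lists were chosen with earlier results of these data known. Named were all called members, the 12 highest levels, the 2 highest per role and the 6 least changed with at least 10 FPKM. Also named were 3 on each side of the threshold and the 20 carriers listed for T cell growth and metabolism. Slc25a10, Slc25a36, Slc28a2, Slc35a3 and the model of Slc12a8 were named after their values were seen.

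GC content, length and 3′ UTRs came from 1 GENCODE M21 transcript per gene (GRCm38). A spline surface of 5 pieces per term was fitted over coding genes, leaving out 52 whose transcript was over 1.2 times longer than their model. On simulated data for KO over WT with 8999 genes, 200 of them changed, this recovered 51% of changes of 1 log2 unit and 94% of 2. It also called 10 unchanged genes. The simulated ratios were the fitted trend plus noise of the implied standard errors, so trend and errors were right by construction. Alternatives covered thresholds, filters, pseudocounts, centring, model choice and the trend. Python 3.11.15, pandas 2.3.3, scipy 1.17.1, statsmodels 0.14.6 and matplotlib 3.10.9 were used. Comparison of member proteins was not done. Some members and markers enter the counts but are not reported here by name.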

Additional observations from a re-analysis of the deposited data

How the results depend on the processing

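No paired analysis was possible because the table gives 1 value per genotype, and for the same reason no library could be left out in turn. The 14 called carriers (2 higher in KO, 12 lower) became 8 (1 and 7) at q under 0.01, 24 (5 and 19) at q under 0.1, and 8 (1 and 7) at a mean of at least 5 FPKM. At a mean of at least 2 FPKM 1 was higher. With the GC trend removed, with or without length, 1 was left, Slc15a2, with 0 lower. The count per role then fell to 0 for carriers of amino acids, fatty acids, ions, mitochondria, sugars, vitamins and nucleosides, and metals, and the 6 ABC transporters also to 0. Ratios centred on the median of all tested models (-0.17) gave 13 calls, 6 higher and 7 lower, of which 9 were shared with the 14. It added Slc9a7, Slc25a36, Slc25a37 and Slc28a2 as higher and lost Slc12a4, Slc25a11, Slc25a38, Slc25a39 and Slc45a4. Centring raised the ratio of every model by the same amount. A size criterion of 1 log2 unit gave 11, no filter 16, and inclusion of the 3 left-out symbols 15. The model with the smallest p per symbol gave 14. The shares of all tested models called at the other q thresholds, the higher FPKM filters and after centring were not counted. Those counts do not set the carriers apart. The median log2 ratio of -0.23 became -0.063 on centring, 0.042 with the GC and length trend removed and 0.074 with the GC trend alone removed, and was -0.24 to -0.20 under the pseudocounts and filters. With the GC and length trend removed Slc12a4 turned to 0.090, and 13 of the 14 called carriers, Slc12a4 among them, were no longer called. Of 50 named carriers 37 stayed on their side of the threshold, and 18 of these, all not called, turned sign. Removing the trend takes away any change that itself follows GC content, so it cannot tell such a change apart from base composition. With depth unknown, the implied standard error, with a median of 0.32 over carriers, is the only measure of precision.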
